A study of Caenorhabditis elegans with 12 samples.

Results

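The 10 genes followed here belong to epithelial junctions and the gut lumen, and were read in early embryos of the nematode Caenorhabditis elegans: hmr-1, hmp-1, hmp-2, jac-1, dlg-1, ajm-1, let-413, erm-1, act-5 and ifb-2. They were found by symbol in the deposited gene annotation, in which overlapping or adjoining genes are merged into 1 counted feature. Of the 10, 5 (hmp-1, hmp-2, dlg-1, erm-1 and ifb-2) stood in a feature that names 1 gene. They are the counted members, among 28096 such features of 31753 in all. A further 3 genes (hmr-1, jac-1 and ajm-1) shared their feature only with noncoding RNA genes, and their values are given beside the members but not counted with them. The last 2, act-5 and let-413, lay in features merging 66 and 85 coding genes, so no value could be assigned to either.

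Epithelial cells of the worm are joined at their apical side by a single junction with separate adhesive modules. The cadherin module holds HMR-1, the classical cadherin, bound to the beta-catenin HMP-2, the alpha-catenin HMP-1 and the p120-catenin JAC-1. Another module lies just basal to it and holds DLG-1, the Discs large protein, with the coiled-coil protein AJM-1, while LET-413, the Scribble protein, keeps both modules apical. In the intestine ERM-1, the ezrin-radixin-moesin protein, and the actin ACT-5 build the microvilli of the lumen, and the intermediate filament protein IFB-2 is part of the filament sheath below them. Epithelia and the gut lumen form after the early cleavages. The stages that the labels give for most of the embryos precede both, and the stage of the remaining embryos is not given.

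PAT-seq, which reads the 3′ end of each polyadenylated RNA together with its poly(A) tail, was run on 12 libraries of early embryos in 6 groups of 2. The labels put over 90% of the embryos at stages from zygote to 24 cells. The groups were wild-type N2, the mutant mex-6(pk440), and embryos after feeding RNAi against mex-5, pos-1, gld-2 or gld-3. GLD-2 extends poly(A) tails in the cytoplasm together with GLD-3, and the other targets are RNA-binding proteins with CCCH zinc fingers. According to the labels N2 was fed OP50, and RNAi was done on HT115(DE3) after IPTG induction of 6 h. No sample fed HT115(DE3) with an empty vector is among those analysed here, so food and depletion cannot be told apart in any comparison of an RNAi group with N2. The food of mex-6(pk440) is not stated separately, and the strain that received RNAi is not stated either. Food and strain therefore cannot be told apart from depletion where an RNAi group is compared with mex-6(pk440). The column names of the deposited tables call the mex-6 libraries RNAi, whereas the titles give the allele, and the titles were followed. Separate cultures are not stated for the libraries of a group, so p-values measure only the spread between these libraries. In whole embryos, fewer cells of a type and less RNA per cell cannot be told apart.

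Reads assigned to genes ranged from 4613974 to 10229871 per library, of which 35.4% to 56.7% were ribosomal RNA. Each targeted gene was lower in both of its libraries than in N2, at 15.5% of N2 for pos-1, 8.46% for gld-3, 44.3% for gld-2, 8.07% for mex-5 and 2.36% for mex-6. Levels are given as CPM, counts scaled by the gene reads and the TMM factor of each library. Differences are log2 differences with their standard error, and a gene was called where the Benjamini-Hochberg adjusted p of edgeR's quasi-likelihood test over 9403 genes was under 0.05. Intervals and p-values do not account for PCR copies, since no molecular identifiers are described.

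Of the 5 members, hmp-1, dlg-1 and ifb-2 differed among the 6 groups (edgeR adjusted p = 0.00544, 0.00239 and 5.93e-06), against a background of 44.5% of all genes tested. A pair of patterns stood among them. The levels of hmp-1 and dlg-1, and of ajm-1 in its shared feature, were higher in all 8 RNAi libraries than in all 4 others. The level of ifb-2 was lowest in pos-1 RNAi and highest in mex-5 RNAi, and its libraries spanned a 27.5-fold range. The levels of erm-1 and hmp-2 spanned 1.69-fold and 2.02-fold over the 12 libraries, and neither was called in any comparison.

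**Figure D1:**
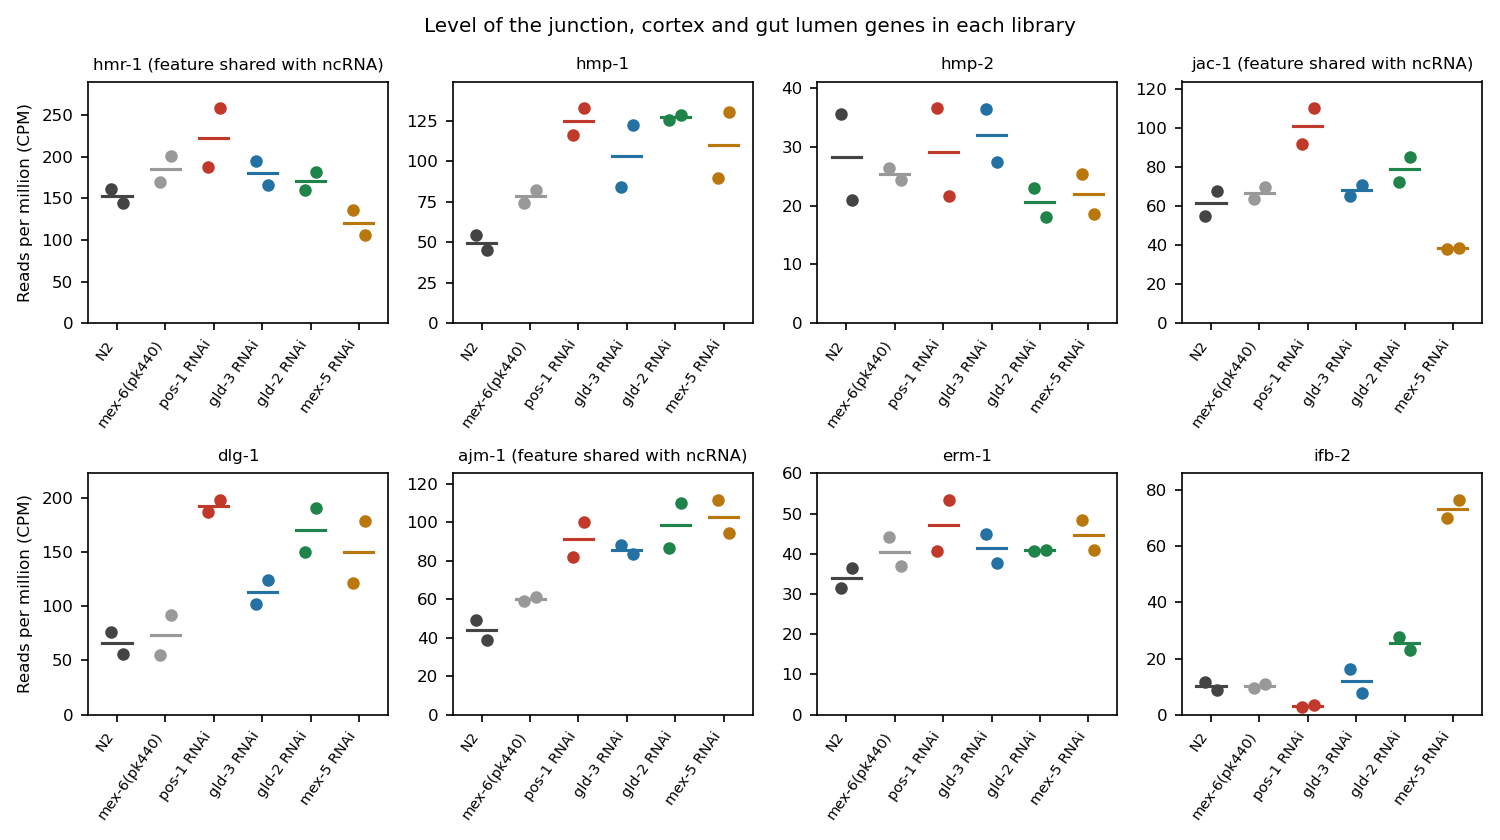
Level of 8 genes in each library (CPM, linear axes from 0), with the libraries of a group as points and their mean as a bar. The RNAi points of hmp-1, dlg-1 and ajm-1 all lie above the N2 and mex-6(pk440) points, whereas ifb-2 runs from 2.79 CPM in pos-1 RNAi to 76.5 CPM in mex-5 RNAi.

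In the cadherin module, hmr-1 encodes the cadherin itself and lies on chromosome I in a 58.2 kb feature naming 3 genes. Its level was 161 and 144 CPM in N2, 188 and 258 in pos-1 RNAi, 195 and 166 in gld-3 RNAi, 160 and 182 in gld-2 RNAi, 136 and 106 in mex-5 RNAi, and 170 and 201 in mex-6(pk440). Both mex-5 RNAi libraries lay below the other 10, and the remaining groups overlapped their neighbours in order. No comparison with N2 was called. With pos-1 RNAi set against mex-5 RNAi, hmr-1 was higher after pos-1 RNAi by 0.88 ± 0.23 on the log2 scale (edgeR adjusted p = 0.00922). That call was lost without library 2 of pos-1 RNAi (adjusted p = 0.0758) or of mex-5 RNAi (0.0696).

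The p120-catenin gene jac-1, in a 28.7 kb feature on chromosome IV from 15998097 to 16026815 (ce10, minus strand) that names 90 genes in all, had the same extremes. It stood at 54.9 and 67.8 CPM in N2, 91.5 and 110 in pos-1 RNAi, 65.1 and 70.9 in gld-3 RNAi, 72.3 and 85.3 in gld-2 RNAi, 38.1 and 38.5 in mex-5 RNAi, and 63.5 and 69.8 in mex-6(pk440). The pos-1 RNAi libraries were above all others and the mex-5 RNAi libraries below all others. In log2 units the gene rose by 0.72 ± 0.21 in pos-1 RNAi (edgeR adjusted p = 0.0407) and fell by 0.68 ± 0.21 in mex-5 RNAi (0.0286). Set directly against mex-5 RNAi, pos-1 RNAi gave a difference of 1.39 ± 0.22 (0.000304), kept under all 18 alternatives run. The calls against N2 were less firm: the one in pos-1 RNAi was lost under 7 of 19 alternatives, with the highest adjusted p, 0.208, without N2 library 1. The one in mex-5 RNAi was lost under 6 of 19, with the highest, 0.167, without N2 library 2. In mex-5 RNAi jac-1 also differed from mex-6(pk440) by -0.80 ± 0.21 log2 units (edgeR adjusted p = 0.0172), a call lost without any 1 of those 4 libraries (0.06 to 0.082). Of its reads, 94.7% to 99.4% lay in the 1 peak past the annotated end of jac-1. Over the 12 libraries the log2 CPM of jac-1 and hmr-1 had a Pearson r of 0.85, given as a description of libraries that share their groups.

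The beta-catenin and alpha-catenin genes, whose products bind each other directly, did not share a pattern. hmp-2, on chromosome I, ranged from 18.1 CPM in gld-2 RNAi to 36.6 CPM in pos-1 RNAi. Its libraries of neighbouring groups overlapped at every step of the order, and its log2 differences from N2 lay between -0.46 ± 0.32 in gld-2 RNAi and 0.17 ± 0.32 in gld-3 RNAi. The N2 libraries alone were 35.6 and 20.9 CPM apart, so changes of that size were not detectable here. Between 50.2% and 90.5% of hmp-2 reads lay in its called peak.

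hmp-1, on chromosome V from 11845859 to 11851751 (ce10, plus strand), was at 54.2 and 45.3 CPM in N2 and at 74.3 and 82.5 CPM in mex-6(pk440). It was at 116 and 133 CPM in pos-1 RNAi, 84.0 and 122 in gld-3 RNAi, 125 and 129 in gld-2 RNAi, and 89.8 and 130 in mex-5 RNAi. None of the RNAi groups overlapped N2 or mex-6(pk440). Among themselves they overlapped, except that both gld-2 RNAi libraries lay above both gld-3 RNAi libraries. The gene rose by 1.32 ± 0.25 in pos-1 RNAi (edgeR adjusted p = 0.00474), by 1.05 ± 0.25 in gld-3 RNAi (0.0206), by 1.35 ± 0.25 in gld-2 RNAi (0.00233) and by 1.14 ± 0.25 in mex-5 RNAi (0.00381), which are changes of 2.50-fold, 2.07-fold, 2.55-fold and 2.21-fold. The call in gld-3 RNAi was lost without N2 library 1 (adjusted p = 0.0509), N2 library 2 (0.147) or gld-3 RNAi library 2 (0.134), and with the 4 libraries of both groups alone (0.0833). Against mex-6(pk440) in place of N2 the 4 differences were 0.67, 0.40, 0.70 and 0.49 in the same order, with adjusted p of 0.152, 0.511, 0.0602 and 0.181, and none was called. mex-6(pk440) itself differed from N2 by 0.65 ± 0.25 (adjusted p = 0.424).

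In the DLG-1 and AJM-1 module, dlg-1, on chromosome X from 5479729 to 5484675 (ce10, plus strand), had 75.9 and 55.9 CPM in N2 and 55.3 and 92.1 CPM in mex-6(pk440). It had 187 and 198 CPM in pos-1 RNAi, 102 and 124 in gld-3 RNAi, 150 and 190 in gld-2 RNAi, and 122 and 179 in mex-5 RNAi. All RNAi libraries were above all others, with gld-3 RNAi the lowest of the RNAi groups by its mean. The gene rose 2.91-fold, or by 1.54 ± 0.28 log2 units, in pos-1 RNAi (edgeR adjusted p = 0.0045), by 1.36 ± 0.28 in gld-2 RNAi (0.00451) and by 1.18 ± 0.28 in mex-5 RNAi (0.0069). In gld-3 RNAi the difference was 0.77 ± 0.28 with an adjusted p of 0.105. The calls in pos-1 RNAi and gld-2 RNAi were kept under all 19 alternatives run, mex-6(pk440) as the control among them. The call in mex-5 RNAi was lost without N2 library 2 (adjusted p = 0.0588) or mex-5 RNAi library 2 (0.0608). dlg-1 was also higher in mex-5 RNAi than in mex-6(pk440), by 1.03 ± 0.28 (0.0191), and that call was lost without mex-5 RNAi library 2 (0.16) or mex-6(pk440) library 1 (0.217).

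The feature of ajm-1, on chromosome X from 9098290 to 9113268 (ce10, plus strand), names 2 genes, ajm-1 and a noncoding RNA gene. It was at 49.1 and 38.8 CPM in N2, 59.1 and 61.0 in mex-6(pk440), 81.8 and 100.2 in pos-1 RNAi, 88.3 and 83.3 in gld-3 RNAi, 86.7 and 110 in gld-2 RNAi, and 112 and 94.2 in mex-5 RNAi. All RNAi libraries lay above both other groups. Among themselves the RNAi groups overlapped, except that both mex-5 RNAi libraries lay above both gld-3 RNAi libraries. The feature rose in each RNAi group, by 1.05 ± 0.22 in pos-1 RNAi (edgeR adjusted p = 0.00886), 0.96 ± 0.22 in gld-3 RNAi (0.0188), 1.16 ± 0.22 in gld-2 RNAi (0.00301) and 1.22 ± 0.22 in mex-5 RNAi (0.00117). The calls in gld-2 RNAi and mex-5 RNAi were kept under all 19 alternatives. The call in gld-3 RNAi was lost without N2 library 2 (0.161), gld-3 RNAi library 1 (0.0534) or gld-3 RNAi library 2 (0.0596) and with the 4 libraries alone (0.0842), and the call in pos-1 RNAi without N2 library 2 (0.0796) or pos-1 RNAi library 2 (0.0668). Against mex-6(pk440) the same groups gave 0.51 (0.343) and 0.60 (0.155). The feature was 0.78 ± 0.22 higher in mex-5 RNAi than in mex-6(pk440) (0.023), a call lost without mex-5 RNAi library 1 (0.142), mex-6(pk440) library 1 (0.144) or mex-6(pk440) library 2 (0.107), with no low-count filter (0.0637), and when only the peak past the end of the gene was counted (0.135).

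For ajm-1 the reads of the feature and the reads at the end of the gene gave different pictures. Its reads fell in 6 called peaks, 5 inside the annotated gene and 1 starting past its end. That last peak held only 9.95% to 31.6% of the peak reads, with 9.95% and 10.1% in the pos-1 RNAi libraries against 19.7% and 21.8% in N2. When only the reads of the last peak were tested, the difference of pos-1 RNAi from N2 was -0.03 (edgeR adjusted p = 0.971), where the feature had risen. By the same count pos-1 RNAi was 1.21 log2 units below gld-3 RNAi (0.0438) and 0.98 below mex-5 RNAi (0.0312). This count was chosen after the values were seen. The rise of the ajm-1 feature in pos-1 RNAi thus lay in reads outside this peak. The first of the peaks inside the gene held 10.7% to 28.3% of peak reads. Mean tails there were 11.5 to 14.6 nt, in the 7 libraries with a value, and 38.5 to 60.0 nt at the peak past the end.

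Counted together, 2 of the 5 members had every RNAi library above every other library, against 1.94% of the 9403 genes tested. Of the 5 members, 3 were called in pos-1 RNAi against N2, where 12.2% of all genes were, with hmp-1 and dlg-1 higher and ifb-2 lower. In gld-3 RNAi 1 of 5 was called (hmp-1, higher) against 8.08% of all genes. In gld-2 RNAi and in mex-5 RNAi the same 3 genes, hmp-1, dlg-1 and ifb-2, were called, all higher, where 27.2% and 30.8% of all genes were called. In mex-6(pk440) against N2 none of the 5 was called by edgeR or by DESeq2, where edgeR called 2 genes of all tested (0.0213%) and 860 had an unadjusted p under 0.05. The median log2 difference of the 5 members from N2 was 0.47 in pos-1 RNAi, 0.29 in gld-3 RNAi, 1.32 in gld-2 RNAi, 1.14 in mex-5 RNAi and 0.15 in mex-6(pk440). Over all genes tested it lay between -0.09 and -0.01. The 5 comparisons share the N2 libraries.

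**Figure D2:**
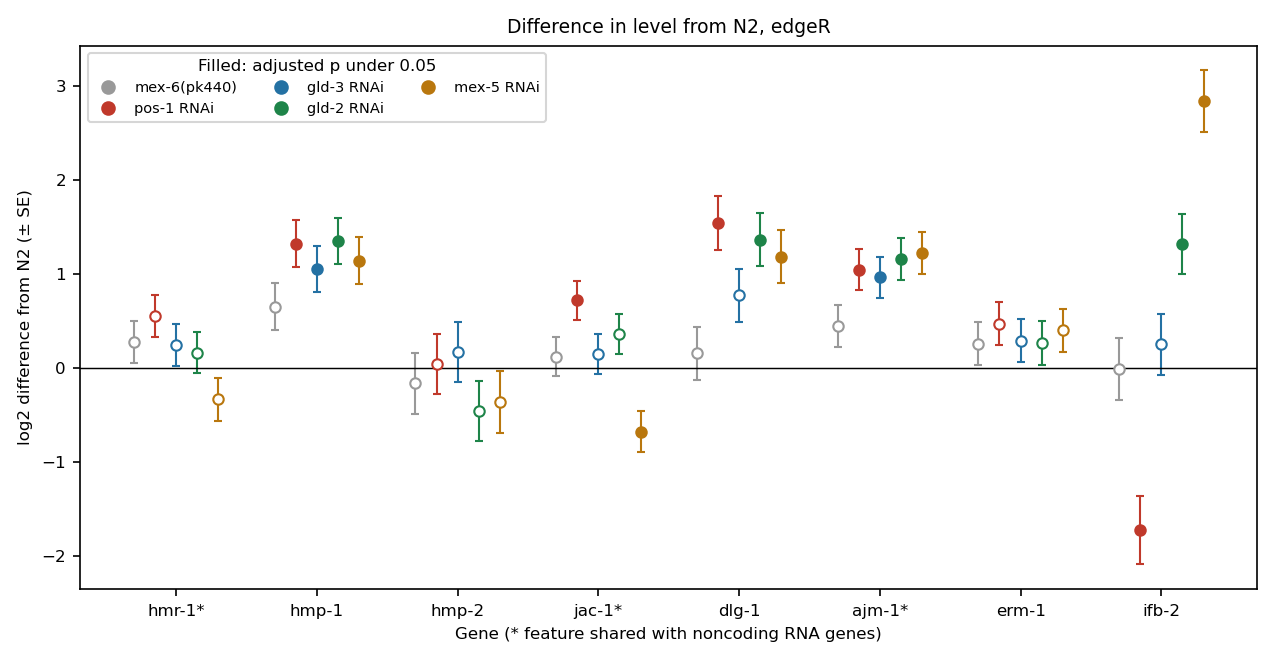
Log2 difference in level from N2 with its standard error, for 8 genes and 5 groups of 2 libraries each, filled where the edgeR adjusted p was under 0.05. hmp-1, dlg-1 and ajm-1 lie above 0 in every RNAi group, while ifb-2 lies at -1.73 in pos-1 RNAi and 2.84 in mex-5 RNAi.

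At the gut lumen, erm-1, on chromosome I, ranged from 31.6 CPM in N2 to 53.4 CPM in pos-1 RNAi. All groups but N2 overlapped their neighbours, and its differences from N2 lay between 0.26 ± 0.23 in mex-6(pk440) and 0.47 ± 0.23 in pos-1 RNAi (edgeR adjusted p = 0.212), none called. Both N2 libraries, at 31.6 and 36.4 CPM, were the lowest of the 12. The feature that holds act-5 spans 823 kb of chromosome III and that of let-413 spans 656 kb of chromosome V, so their counts are sums over many genes. Of the other actin genes, act-2 and act-4 had features of their own, at 638 to 1137 CPM and 430 to 1150 CPM, while act-1 and act-3 did not.

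ifb-2, on chromosome II from 5750180 to 5753958 (ce10, plus strand), was at 11.6 and 8.66 CPM in N2, 2.79 and 3.45 in pos-1 RNAi, 16.3 and 7.73 in gld-3 RNAi, 27.7 and 23.2 in gld-2 RNAi, 70.2 and 76.5 in mex-5 RNAi, and 9.42 and 11.0 in mex-6(pk440). The pos-1 RNAi libraries lay below all others, gld-2 RNAi above all but mex-5 RNAi, and mex-5 RNAi above all, while N2, gld-3 RNAi and mex-6(pk440) overlapped. These levels rest on 20 to 431 reads per library.

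Relative to N2 and in log2 units, ifb-2 fell by 1.73 ± 0.36 in pos-1 RNAi, to 0.302 of its level (edgeR adjusted p = 0.00853). It rose by 1.32 ± 0.32 in gld-2 RNAi (0.01) and by 2.84 ± 0.33, or 7.15-fold, in mex-5 RNAi (5.2e-05). The rise in mex-5 RNAi was kept under all 19 alternatives. The fall in pos-1 RNAi was lost without N2 library 1 (0.0595), pos-1 RNAi library 1 (0.0755) or pos-1 RNAi library 2 (0.0582), and the rise in gld-2 RNAi without N2 library 2 (0.0757) or gld-2 RNAi library 1 (0.0519).

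Compared directly, ifb-2 was 4.56 ± 0.37 log2 units below mex-5 RNAi in pos-1 RNAi (edgeR adjusted p = 2.32e-06). It was the only 1 of the 5 members called there, where 28.9% of all genes were. Both groups received RNAi by feeding, so their stated food did not differ. ifb-2 was also 1.98 ± 0.36 lower in pos-1 RNAi than in gld-3 RNAi (0.00636), again 1 of 5 against 4.56% of all genes. That call was lost with the 4 libraries of these groups alone (0.0917) and without pos-1 RNAi library 1 (0.0771), pos-1 RNAi library 2 (0.0502) or gld-3 RNAi library 1 (0.0681). When mex-5 RNAi was set against mex-6(pk440), whose targets encode related zinc finger proteins, 2 of 5 members were called against 20.8% of all genes. They were dlg-1 and ifb-2, and ifb-2 was 2.85 ± 0.33 higher in mex-5 RNAi (8.11e-05).

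Other genes of the same or related structures were read from lists, with values for the members that had the smallest p against N2. Among 10 tested genes of intermediate filaments and fibrous organelles (the attachments that carry tension across the epidermis), 9 rose in gld-2 RNAi and none fell, where 27.2% of all genes were called in either direction. In mex-5 RNAi 9 rose and 1 fell, with a median difference of 2.43, against 30.8% of all genes called. In gld-3 RNAi 3 rose and none fell (8.08% of all genes), in pos-1 RNAi 2 rose and 2 fell with a median of -1.10 (12.2%), and in mex-6(pk440) none was called (0.0213%). Over all genes tested the medians lay between -0.09 and -0.01.

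Within that list, the epidermal filament gene ifa-3 rose in every RNAi group, by 1.46 ± 0.29 in pos-1 RNAi (edgeR adjusted p = 0.00592) and 3.00 ± 0.29 in mex-5 RNAi (1.93e-05). mua-3, a transmembrane protein of fibrous organelles, rose in every RNAi group too, by 1.46 ± 0.26 in pos-1 RNAi (0.00378) and 1.91 ± 0.26 in gld-2 RNAi (0.000406). mup-4, of the same organelles, rose by 1.60 ± 0.26 in gld-2 RNAi (0.00119) and 1.78 ± 0.27 in mex-5 RNAi (0.000302). The intestinal filament gene ifp-1 rose by 2.99 ± 0.49 in gld-2 RNAi (0.00117) and 3.72 ± 0.49 in mex-5 RNAi (0.000132), and its difference in pos-1 RNAi was -0.85 ± 0.61 (0.403). Singled out after their values were seen, the other intestinal filament genes with a feature of their own had differences from N2 in pos-1 RNAi and mex-5 RNAi of -3.60 and 3.86 for ifc-1, -1.74 and 3.01 for ifd-1, and -1.35 and 3.33 for ifd-2. None of these passed the threshold in pos-1 RNAi, and ifc-1 averaged only 0.69 CPM. The intestinal filament genes thus carried the same signs as ifb-2 in these groups, while ifa-3 and mua-3 were higher in both and ifa-1 was lower in both. The signs were not particular to these genes. In the same list ifa-4 fell by 2.31 in pos-1 RNAi (edgeR adjusted p = 0.011) and rose by 1.26 in mex-5 RNAi (0.027). The muscle gene mlc-3 fell by 1.30 (0.00404) and rose by 1.98 (5.2e-05) in these groups.

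**Figure D3:**
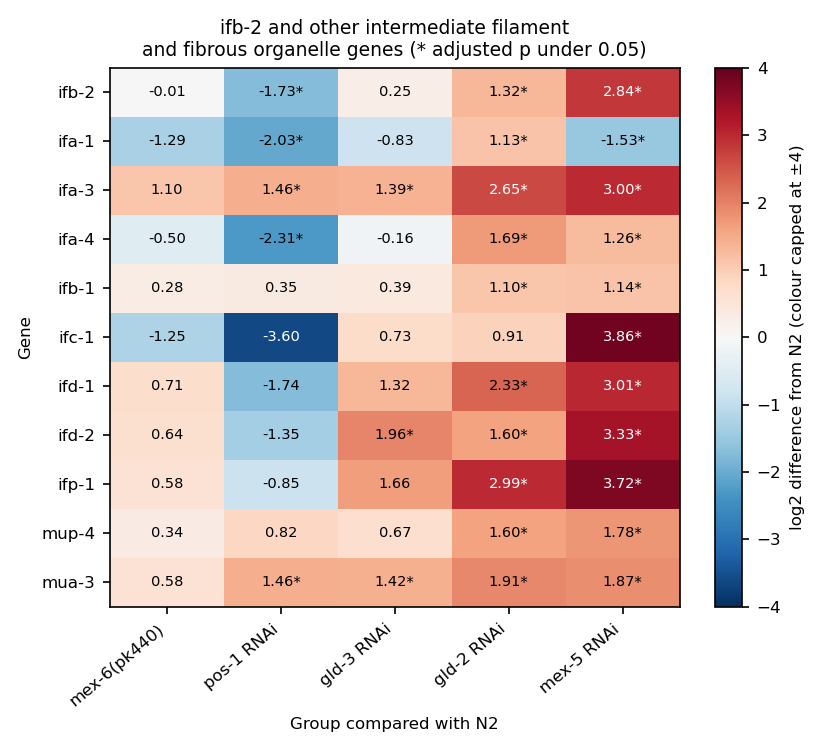
Log2 difference in level from N2 of ifb-2 and of 10 further intermediate filament and fibrous organelle genes, as number and colour, with an asterisk where the edgeR adjusted p was under 0.05. In the mex-5 RNAi column all but ifa-1 are above 0, whereas the pos-1 RNAi column holds both signs.

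The list of adherens junction genes beside the members had 6 tested genes and was not restricted to genes of epithelia. Its deb-1, the vinculin gene, rose by 1.10 ± 0.32 in gld-2 RNAi (edgeR adjusted p = 0.0242) and 2.06 ± 0.33 in mex-5 RNAi (0.000463). afd-1, the afadin gene, rose by 0.71 ± 0.18 in pos-1 RNAi (0.0207) and 0.72 ± 0.18 in gld-2 RNAi (0.0112). atn-1, for alpha-actinin, fell by 0.84 ± 0.26 in mex-5 RNAi (0.0252), and no other gene of this list was called against N2. In all, 1 of 6 was called in pos-1 RNAi, none in gld-3 RNAi or mex-6(pk440), and 2 in each of gld-2 RNAi and mex-5 RNAi. With 6 genes these counts stand near the 12.2%, 27.2% and 30.8% of all genes called in pos-1 RNAi, gld-2 RNAi and mex-5 RNAi. pac-1, the RhoGAP gene of radial polarity, differed by -0.76 ± 0.28 in mex-5 RNAi (0.0517).

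Among 14 tested claudin-like, gap junction and apical polarity genes, 3 rose and 1 fell in pos-1 RNAi, none was called in gld-3 RNAi or mex-6(pk440), 5 rose in gld-2 RNAi and 4 rose in mex-5 RNAi. In gld-2 RNAi and mex-5 RNAi these counts are near the 27.2% and 30.8% of all genes called there, and 12.2% were called in pos-1 RNAi. The claudin-like gene clc-1 had the signs of ifb-2, falling by 2.91 ± 0.77 in pos-1 RNAi (edgeR adjusted p = 0.0251) and rising by 3.02 ± 0.50 in mex-5 RNAi (0.000629). Its level was low, with means of 2.82 CPM in N2 (SD 2.14) and 0.28 CPM in pos-1 RNAi (SD 0.39), so the fall rests on few reads. The innexin gene inx-13 rose by 1.22 ± 0.29 in pos-1 RNAi (0.015) and 1.04 ± 0.29 in gld-2 RNAi (0.0186). nsy-4, another claudin-like gene, rose by 0.97 ± 0.25 in gld-2 RNAi (0.0138) and 1.02 ± 0.25 in mex-5 RNAi (0.009), and vab-9, of the same superfamily, by 1.37 ± 0.32 in gld-2 RNAi (0.00883).

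Of 7 tested spectrin and actin cortex genes, 4 rose in gld-2 RNAi, 4 rose and 1 fell in mex-5 RNAi, 1 rose in gld-3 RNAi, 1 fell in pos-1 RNAi and none was called in mex-6(pk440). Of all genes, 27.2%, 30.8%, 8.08% and 12.2% were called in gld-2, mex-5, gld-3 and pos-1 RNAi. The tropomyosin gene lev-11 fell by 1.00 ± 0.24 in pos-1 RNAi (edgeR adjusted p = 0.0175) and rose by 1.64 ± 0.24 in mex-5 RNAi (0.000293). The tropomodulin gene tmd-2 rose by 2.71 ± 0.51 in gld-3 RNAi (0.00699), 2.74 ± 0.51 in gld-2 RNAi (0.00247) and 3.90 ± 0.51 in mex-5 RNAi (0.000124). The spectraplakin gene vab-10 rose by 1.12 ± 0.31 in gld-2 RNAi (0.0193) and 1.37 ± 0.31 in mex-5 RNAi (0.00529), and act-4 by 0.96 ± 0.22 (0.00713) and 0.80 ± 0.22 (0.0135).

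Markers of other tissues and stages moved with these groups, and their part in the results was not tested. The summed level of 14 markers of later embryonic tissues (muscle, cuticle, neurons) was 546 to 588 CPM in N2, 621 to 670 in mex-6(pk440), 732 to 821 in pos-1 RNAi, 782 to 842 in gld-3 RNAi, 1148 to 1264 in gld-2 RNAi and 2486 to 2591 in mex-5 RNAi. The groups thus stood in the order of the ifb-2 means, apart from pos-1 RNAi. For ifb-2, however, N2, gld-3 RNAi and mex-6(pk440) overlapped. The sum also leaned on the cuticle gene sqt-3, with a mean of 609 CPM over the libraries, the next being snb-1 with 95.7. Counts of called markers are to be read against 12.2% of all genes called in pos-1 RNAi, 8.08% in gld-3 RNAi, 27.2% in gld-2 RNAi and 30.8% in mex-5 RNAi. Of the 13 tested, 9 rose in gld-2 RNAi, 9 in mex-5 RNAi and 3 in gld-3 RNAi. In pos-1 RNAi 2 rose (sqt-3 and nlp-29) and 3 fell (the muscle genes myo-1, myo-2 and mlc-3). Of 16 tested early embryo and oocyte markers, 15 fell in gld-2 RNAi, where their sum was 1495 to 1548 CPM against 3508 to 3723 in N2 and 3004 to 3843 in the other groups. The 27 sperm markers summed to 150 to 212 CPM in N2, 81.2 to 118 in mex-6(pk440), 35.3 to 58.7 in pos-1 RNAi, 31.7 to 42.1 in gld-3 RNAi, 180 to 195 in gld-2 RNAi and 12.7 to 15.97 in mex-5 RNAi, and of 24 tested 16 fell in pos-1 RNAi, 21 in gld-3 RNAi, 23 in mex-5 RNAi and none in gld-2 RNAi or mex-6(pk440). The hmp-1 and dlg-1 libraries of gld-2 RNAi, where the sperm list was in the range of N2, overlapped those of mex-5 RNAi, where it was lowest. These 2 groups also differed in the sum of early embryo and oocyte markers, and the part of either list in the hmp-1 and dlg-1 levels was not tested.

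ifb-2 was set beside the genes of gut specification and the adult gut, since its product belongs to the intestine. Of 8 tested gut specification genes, 4 fell in pos-1 RNAi and 1 in mex-5 RNAi, where 12.2% and 30.8% of all genes were called. The endodermal GATA factor genes elt-2, elt-7 and end-1 fell in pos-1 RNAi by 4.44 ± 0.83 (edgeR adjusted p = 0.00463), 2.76 ± 0.43 (0.00219) and 2.34 ± 0.51 (0.00994). Their levels were low, with means of 3.18, 8.18 and 5.01 CPM in N2 and 0.11, 1.13 and 0.90 CPM in pos-1 RNAi. elt-2 was also below N2 in every other group, by 0.77 to 1.89, with none of these called. In mex-5 RNAi, where ifb-2 was highest, elt-2 differed by -1.23 ± 0.60 (0.141) and elt-7 by -0.73 ± 0.38 (0.165), and pha-4, the FoxA gene of foregut and gut, fell by 1.77 ± 0.27 (0.000308). The 9 genes of this list summed to 105 to 116 CPM in N2, 110 to 124 in pos-1 RNAi, 102 to 116 in gld-3 RNAi, 108 to 109 in gld-2 RNAi, 69.6 to 73.8 in mex-5 RNAi and 121 to 126 in mex-6(pk440). The sum leaned on wrm-1, with a mean of 50.2 CPM over the libraries, against 1.43 for elt-2, 6.13 for elt-7 and 5.22 for end-1. It therefore says little about the GATA factor genes. ifb-2 was thus low together with endodermal GATA genes in pos-1 RNAi, and high in mex-5 RNAi with no call for elt-2 or elt-7.

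The 12 adult intestine and yolk markers summed to 320 to 524 CPM in N2, 35.9 to 103.7 in pos-1 RNAi, 150 to 169 in gld-3 RNAi, 605 to 630 in gld-2 RNAi, 319 to 326 in mex-5 RNAi and 127 to 169 in mex-6(pk440), and none was at 0 in all libraries. Of 11 tested, 10 fell in pos-1 RNAi, 5 in gld-3 RNAi and 7 in mex-5 RNAi, while 2 rose in mex-5 RNAi and 1 in gld-2 RNAi. The shares of all genes called there were 12.2%, 8.08%, 30.8% and 27.2% in pos-1, gld-3, mex-5 and gld-2 RNAi. The protease genes cpr-6 and asp-1 had the signs of ifb-2. cpr-6 fell by 2.56 ± 0.33 in pos-1 RNAi (edgeR adjusted p = 0.000866) and rose by 1.29 ± 0.28 in mex-5 RNAi (0.00355). asp-1 fell by 2.58 ± 0.40 (0.00216) and rose by 1.09 ± 0.37 (0.0392) in the same groups. In the same list cpr-1 and vit-4 instead fell in both groups. In pos-1 RNAi their differences from N2 were -2.20 ± 0.44 (edgeR adjusted p = 0.00688) and -2.50 ± 0.39 (0.00219). In mex-5 RNAi they were -3.67 ± 0.51 (0.000195) and -2.83 ± 0.40 (0.000225). ifb-2 was thus low in pos-1 RNAi together with nearly all adult intestine and yolk markers. It was highest in mex-5 RNAi, where the yolk genes vit-1, vit-2, vit-4, vit-5 and vit-6, singled out after their values were seen, had fallen. The other tested markers were mixed there. asp-1 and cpr-6 rose, cpr-1 and lys-7 fell, and ftn-1 and pept-1 were not called. In mex-6(pk440) these yolk genes differed from N2 by -2.82 to -2.23, none called.

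Epidermal fate genes were set beside hmp-1, dlg-1 and ajm-1, which function in the epidermis among other epithelia. Of 7 tested, 3 rose in pos-1 RNAi, among them elt-1, the GATA factor of epidermal fate, by 0.86 ± 0.25 (edgeR adjusted p = 0.0379). None was called in gld-3 RNAi or mex-6(pk440), 1 fell in gld-2 RNAi, and 1 rose and 1 fell in mex-5 RNAi. The counts in gld-2 RNAi and mex-5 RNAi do not exceed the 27.2% and 30.8% of all genes called there, and in pos-1 RNAi 12.2% of all genes were called. The list summed to 337 to 376 CPM in N2, 604 to 616 in pos-1 RNAi, 406 to 526 in gld-3 RNAi, 343 to 386 in gld-2 RNAi, 407 to 545 in mex-5 RNAi and 353 to 415 in mex-6(pk440). In gld-2 RNAi, hmp-1 and dlg-1 were called higher and no epidermal fate gene was. With 2 libraries per group, a missing call does not show that a gene was unchanged. The part of epidermal fate in the hmp-1 and dlg-1 levels was not tested.

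Poly(A) tails were then compared as the mean tail per gene, in nt, that the authors deposited. In N2 the mean tail of the 5471 genes tested had a median of 42.4 nt. The mean over both N2 libraries was 30.6 nt for dlg-1, longer than in 9.19% of genes, and 34.6 nt for hmp-1, longer than in 19.5%. It was 37.0 nt for ajm-1, 41.0 nt for hmp-2, 41.8 nt for hmr-1, 48.0 nt for erm-1, 48.7 nt for jac-1 and 53.4 nt for ifb-2, which was longer than in 86.4% of genes. dlg-1 and hmp-1 thus had the shortest tails of the 8 in N2. The ajm-1 mean includes the short tails inside the gene, and at the peak past its end N2 had 53.7 and 38.5 nt.

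No member's tail was called in any comparison (limma on the mean tails, Benjamini-Hochberg adjusted p over 5471 genes). Of all genes, 0.0183% were called in pos-1 RNAi and as many, 0.0183%, in gld-3 RNAi, with 0.238% in gld-2 RNAi, 0.402% in mex-5 RNAi, 0% in mex-6(pk440), 0.274% between pos-1 RNAi and gld-3 RNAi and 1.7% for any difference among the groups. In mex-6(pk440), where limma called none, 195 genes had an unadjusted p under 0.05. hmp-1 came nearest to a pattern, with 36.1 and 33.1 nt in N2, 36.01 and 36.5 nt in mex-6(pk440), 40.5 and 41.9 nt in pos-1 RNAi, 38.8 and 43.9 nt in gld-3 RNAi, 38.1 and 39.5 nt in gld-2 RNAi, and 38.7 and 40.2 nt in mex-5 RNAi. Its 8 RNAi libraries were all above the other 4, as in 2.81% of genes, and it was the only 1 of the 5 members for which this held, on tails not centred by library. Set against N2, its tail was longer by 6.74 ± 2.28 nt with gld-3 RNAi (limma adjusted p = 0.223), 6.59 ± 2.28 nt with pos-1 RNAi (0.352), 4.83 ± 2.28 nt with mex-5 RNAi (0.34) and 4.19 ± 2.28 nt with gld-2 RNAi (0.38), none of which passed the threshold. The median tail of a library moved in part the same way, from 40.4 to 44.2 nt in the libraries without RNAi and from 42.7 to 46.9 nt with RNAi. With the median of its library subtracted, the hmp-1 tail was -7.69 to -3.02 nt in the RNAi libraries and -8.05 to -5.74 nt in the others, so the groups overlapped and both gld-2 RNAi libraries lay below both of mex-6(pk440).

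**Figure D4:**
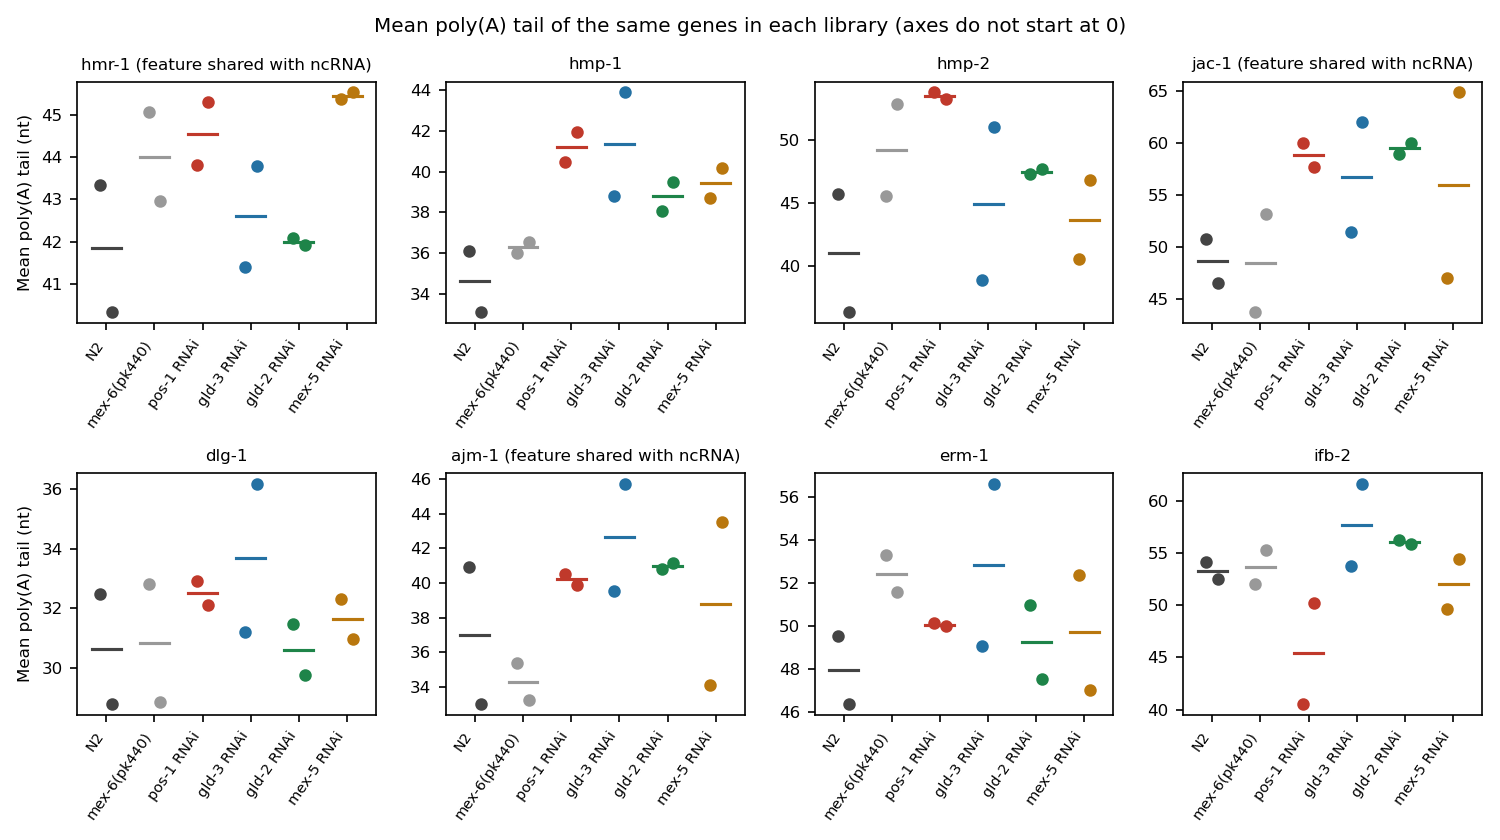
Mean poly(A) tail in nt of the 8 genes in each library, with the libraries of a group as points and their mean as a bar, on axes that do not start at 0. The hmp-1 tails of the RNAi libraries, 38.1 to 43.9 nt, lie above those of N2 and mex-6(pk440), 33.1 to 36.5 nt, while the other 7 genes overlap; tails are not centred by library.

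The other tails moved within wide errors. The hmp-2 tail was 45.7 and 36.3 nt in N2 and 53.8 and 53.3 nt in pos-1 RNAi, a difference of 12.5 ± 4.52 nt (limma adjusted p = 0.352). The ifb-2 tail was 54.1 and 52.6 nt in N2 and 40.6 and 50.3 nt in pos-1 RNAi, the first being the lowest of the 12 libraries, a difference of -7.94 ± 3.97 nt (0.462). Between pos-1 RNAi and gld-3 RNAi it differed by -12.3 ± 3.97 nt (0.298), with 53.8 and 61.7 nt in gld-3 RNAi. In mex-5 RNAi, where the ifb-2 level was 7.15-fold higher, its tail was 49.6 and 54.4 nt, -1.32 ± 3.97 nt from N2 (0.905). The jac-1 tail ranged from 43.8 to 64.8 nt, dlg-1 from 28.8 to 36.2 nt, erm-1 from 46.4 to 56.6 nt, hmr-1 from 40.3 to 45.5 nt and ajm-1 from 33.02 to 45.7 nt. The standard errors of 1.88 to 5.20 nt set the size of tail difference that could be seen for these genes.

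Where a gene ended in more than 1 called peak, the tail differed by peak. dlg-1 had a peak starting 3 bp past its annotated end and a second starting 131 bp farther on. The first held 3.48% to 14.2% of the peak reads, or 24 to 150 reads, and its mean tail was longer than that of the second in all 11 libraries with both values, by a median of 30.0 nt. It ranged from 42.0 to 79.2 nt, against 27.9 to 35.3 nt at the second peak. hmp-1 also had a minor first peak, with 4.48% to 9.75% of peak reads and tails of 31.8 to 59.3 nt in 9 libraries, against 33.2 to 44.6 nt at the main peak. The erm-1 peaks overlapped, with starts 83 bp apart, and there the first had the shorter tail in 11 of 12 libraries, by a median of 8.15 nt. A peak inside the hmr-1 feature, which names 3 genes, held 4 to 42 reads per library, or 0.246% to 4.39% of peak reads. Its tails were 7.82 to 10.6 nt in the 10 libraries with a value, against 41.1 to 46.7 nt at the peak past the end. Whether it marks an end of hmr-1 RNA was not tested.

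**Figure D5:**
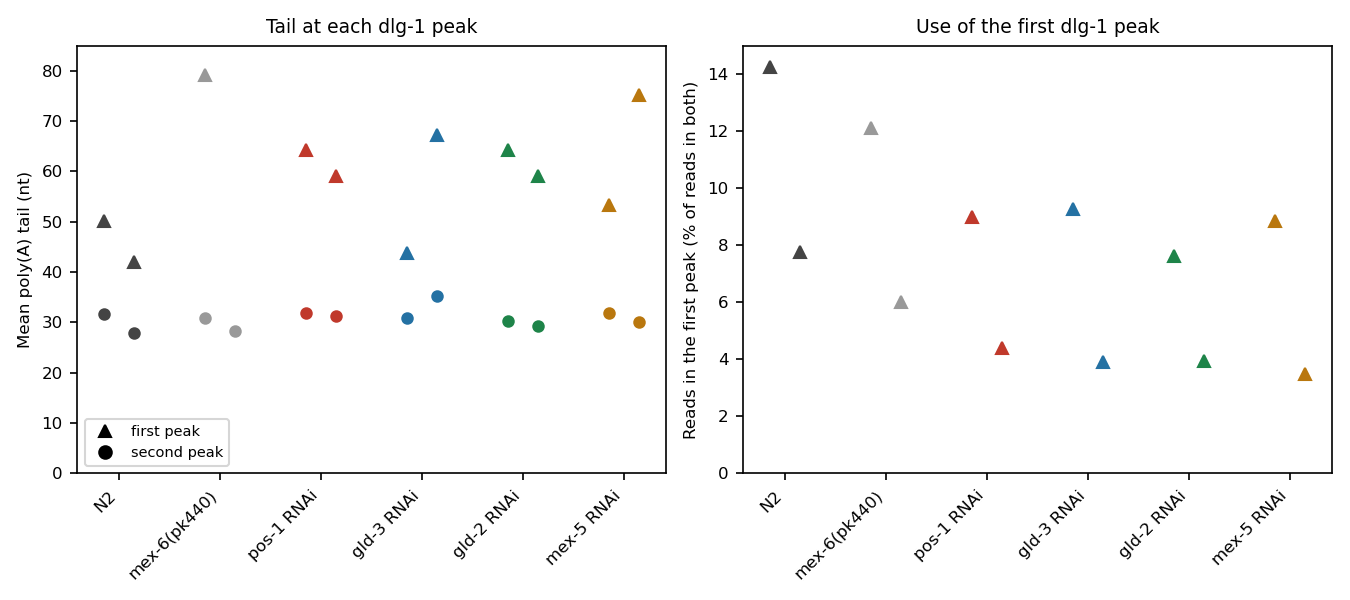
Left, mean poly(A) tail in nt at the first (triangles) and second (circles) dlg-1 peak; right, share of dlg-1 peak reads in the first peak. Within a group library 1 is drawn left of library 2; the first peak's tails run from 42.0 to 79.2 nt, above every second-peak tail, and library 2 of mex-6(pk440) has no tail there.

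The genes whose levels were most like those of a called gene were read by the Pearson r of log2 CPM over the 12 libraries, among 2991 genes with a symbol and a mean of at least 5 CPM. For hmp-1 they were rgs-5, a regulator of G protein signalling (r = 0.98), unc-129, a TGF-beta family ligand (0.95), and the vesicle tethering gene uso-1 (0.95). For dlg-1 they were the innexin gene inx-13 (0.97), wts-1, the Warts kinase gene (0.97), and let-4, a leucine-rich repeat gene of the apical matrix (0.96). For ajm-1 they were mua-3 (0.95), lrp-1 of the LDL receptor family (0.94) and the Patched-related gene ptr-4 (0.93). For ifb-2 they were the muscle genes mlc-3 (0.96) and dim-1 (0.96) and the collagen gene col-14 (0.96). For jac-1 they were the kinesin gene zen-4 (0.96), the homeobox gene ceh-32 (0.95) and the nucleoporin gene npp-1 (0.95). Among the genes followed here, hmp-1 and dlg-1 had r = 0.90, hmp-1 and ajm-1 0.86, and dlg-1 and ajm-1 0.83, while ifb-2 and jac-1 had -0.81. These coefficients describe 12 libraries that share groups and food, and the named genes are the highest of many.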

How the data were processed

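The members and gene lists were chosen with earlier results of these data known. The deposited tables hold raw counts of reads, made by the authors for each gene and each poly(A) peak, and a mean tail length in nt for the same features, treated here as a score and empty where the authors estimated none. Per the submitters' processing notes Bowtie2 2.2.2 and the ce10 genome were used, and per the file headers and source columns the genes come from RefSeq and the peaks from nesoni. The sources used here do not give how tails and peaks were computed. The reference at hand is of another build, so only its symbols were used.

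Levels were tested on all 12 libraries in R 4.3.3 with edgeR 4.0.16 (filterByExpr, TMM factors, quasi-likelihood, 1 coefficient per group) for 9403 features. For tails, limma 3.58.1 with a trended variance was fitted to 5471 features with a value in every library and at least 10 reads. P-values were adjusted by Benjamini-Hochberg over all features, with 0.05 as the threshold. CPM use the gene reads of a library, rRNA included, times its TMM factor, and log2 CPM for likeness add a prior count of 2. The level and tail fits were tested on simulated counts and tails with changes added to pos-1 RNAi. The other steps were not tested in this way. Named were all members, up to 4 genes of each list with the smallest p against N2, and the 3 genes most like each called gene. Alternatives were DESeq2 1.42.0, other scaling, filters, blocks, controls and libraries left out. The count of the main peak past the gene end was added after seeing the data.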

Additional observations from a re-analysis of the deposited data

How the results depend on the processing

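The counts of members called in pos-1 RNAi, gld-2 RNAi, mex-5 RNAi and mex-6(pk440) against N2, between pos-1 RNAi and mex-5 RNAi and for any difference stayed within 1.5 times their values under DESeq2, RLE size factors, no low-count filter, the 4 libraries alone, the replicate block, mex-6(pk440) as the control and the main peak. In gld-3 RNAi against N2 the count of 1 became 2 with no low-count filter, 0 with the 4 libraries of the groups alone and 0 when mex-6(pk440) replaced N2; between pos-1 RNAi and gld-3 RNAi it became 2 with no filter and 0 with the 4 libraries alone. Leaving out 1 library at a time gave 2 to 3 members called in pos-1 RNAi, gld-2 RNAi and mex-5 RNAi, 0 to 1 in gld-3 RNAi, 0 to 1 between pos-1 RNAi and gld-3 RNAi, 1 throughout between pos-1 RNAi and mex-5 RNAi, and 1 to 2 for mex-5 RNAi against mex-6(pk440). No alternative gave a member's tail a call. The peak past the end of ajm-1 reversed 2 differences of its feature, to -0.026 for pos-1 RNAi against N2 and -1.21 for pos-1 RNAi against gld-3 RNAi, and the cause was not tested.

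Same-numbered libraries deviated together (correlations over 0.1) in 9 of 15 pairs of groups for levels and in 5 of 15 for tails. The correlations reached 0.455 for levels and 0.254 for tails. Since the labels do not say what the numbers stand for, the main tests did not pair the libraries. Their p-values therefore leave out anything that same-numbered libraries share. With the replicate block the members called remained 3 in pos-1 RNAi, 1 in gld-3 RNAi, 3 in gld-2 RNAi, 3 in mex-5 RNAi and 0 in mex-6(pk440), while over all genes the block gave 1206 against 760 calls in gld-3 RNAi and 44 against 2 in mex-6(pk440). Over all genes, gld-3 RNAi had 1279 calls with no filter, 313 with the 4 libraries alone and 48 when mex-6(pk440) replaced N2; pos-1 RNAi had 390 with the 4 libraries alone and 436 when mex-6(pk440) replaced N2, against 1148. mex-6(pk440) had 74 with DESeq2, 172 with no filter and 34 with the 4 libraries alone. Tail calls over all genes were few and moved with most settings: centring each library on its median gave 337 for any difference and log2 tails 174, against 93. Libraries of a group differed by more than counting error, their chi-square being 14.6 to 44.7 times its degrees of freedom.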

Other observations

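The use of the first dlg-1 peak differed between the libraries of a group. Its share of the peak reads was higher in the library numbered 1 than in the library numbered 2 in 6 of 6 groups, with 7.61% to 14.2% against 3.48% to 7.74%. For erm-1 the first peak had the higher share in library 1 in 5 of 6 groups, and for hmp-1 in 4 of 6. Library 1 also had more gene reads than library 2 in 6 of 6 groups. The labels do not say what the numbers stand for, and the part of depth in these shares was not tested.

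Among the 10 lists read beside the members, the tails of 68 genes were tested, and 1 was called against N2. It was spn-4, a maternal RNA-binding protein gene, named after its value was seen, whose mean tail was 10.5 ± 1.86 nt longer in mex-5 RNAi (limma adjusted p = 0.0432).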
